A study of Mus musculus with 4 samples.

Results

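The 10 genes described here write, read and erase N6-methyladenosine (m6A), the most common internal mark on messenger RNA. They were taken as the rows of the gene count files named Mettl3, Mettl14, Wtap, Ythdf1, Ythdf2, Ythdf3, Ythdc1, Ythdc2, Alkbh5 and Fto, and all 10 were found among 53677 gene symbols. The libraries came from germinal vesicle (GV) oocytes of mice, which are arrested in meiotic prophase. They fell into Ell3 knockdown oocytes (Ell3 KD, 2 libraries) and control oocytes (Ctrl, 2 libraries), 5 oocytes per library. All donors had received 7.5 IU of PMSG, a gonadotropin that drives follicle growth, and oocytes were collected 48 h later. Strain, age, the means of knockdown, what the Ctrl oocytes received and how many females gave each library are not given in the sources used here.

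A methyltransferase complex deposits m6A while RNA is being made. METTL3 is its catalytic subunit, METTL14 binds the RNA, and WTAP holds the pair in nuclear speckles. Proteins with a YTH domain bind the mark: YTHDC1 in the nucleus, where it acts on splicing, polyadenylation and export, and YTHDF1, YTHDF2, YTHDF3 and YTHDC2 mainly in the cytoplasm, where they act on translation and decay. FTO and ALKBH5 are the demethylases. Fully grown GV oocytes make little new RNA and live on stored messages. In mice, Mettl3 and Ythdf2 are needed for oocyte competence, Ythdc1 for normal processing of oocyte messages, and Ythdc2 for entry into meiosis.

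Sequences are shown first because the counts of the 3 YTHDF paralogs could be read as one pool if their reads were interchangeable. Their coding sequences had 69.9% identical bases over the aligned positions for Ythdf1 and Ythdf2, 70.6% for Ythdf1 and Ythdf3, and 71.8% for Ythdf2 and Ythdf3 (GENCODE M21 transcripts, GRCm38). The longest identical run, in capitals below with 15 bases of coding sequence on either side, was 22 bases for Ythdf1 and Ythdf2 and 17 bases for each of the other pairs. Reads were 150 bases long, so no read that lies whole in one coding sequence could match that of another of the 3 exactly.
Ythdf1, against Ythdf2: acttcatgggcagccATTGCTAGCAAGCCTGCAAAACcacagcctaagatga
Ythdf2, against Ythdf1: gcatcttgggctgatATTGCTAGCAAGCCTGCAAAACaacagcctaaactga
Ythdf2, against Ythdf3: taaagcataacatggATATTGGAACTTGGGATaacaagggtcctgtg
Ythdf3, against Ythdf2: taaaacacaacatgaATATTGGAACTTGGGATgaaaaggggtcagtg

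Library totals were 89632815 and 65722415 counts in Ell3 KD and 45131278 and 48669267 counts in Ctrl, so the groups did not overlap in depth. Levels are given as CPM (counts scaled to a total of 1e+06), adjusted by TMM factors between 0.984 and 1.015. Ell3 itself lay at 2.88 and 2.80 CPM in Ell3 KD, against 8.12 and 9.78 CPM in Ctrl. Serinc4, named for its overlap, shares 65.6% of the exon length of Ell3 on the same strand. It had at most 11 counts in any library, and how reads of the shared stretch were counted is not known. The 12 oocyte markers examined summed to 23200 and 23270 CPM in Ell3 KD and 23650 and 24180 CPM in Ctrl, and none averaged under 32.1 CPM. By the test described below, 3 of the 12 were called higher and 4 lower in Ell3 KD. These stand beside 27.2% higher and 25.3% lower of the genes averaging at least 5 CPM. Log2 fold changes were 0.49 for Dppa3 and 0.46 for Oosp1 among those higher and -0.27 for Nobox among those lower. The 12 cumulus and granulosa markers summed to 51.4 and 53.7 CPM in Ell3 KD and 52.2 and 54.0 CPM in Ctrl. Most of each sum came from Nr5a2 and Cyp19a1, averaging 22.4 and 17.1 CPM in Ell3 KD, so the sums say little about the others. Among the 8 that could be tested, 3 rose: Inha, Gja1 and Npr2, with log2 fold changes of 1.16, 1.17 and 7.11. Nr5a2 alone was called lower, with -0.24. Of all genes tested, 21.1% were called higher and 21.8% lower. Npr2, Foxl2, Amh and Amhr2 had no count in Ctrl and 3 to 28 counts in each Ell3 KD library. Slc38a3 had 3 counts, all in Ctrl replicate 2. The 7 theca and stroma markers summed to at most 1.72 CPM in Ell3 KD and 2.56 CPM in Ctrl. The 7 blood markers summed to at most 1.43 CPM in Ell3 KD and 3.34 CPM in Ctrl, and the 4 globin genes among them had no count in any library; both blood markers that were tested were lower, Cd68 with a log2 fold change of -1.16 and Alas2, at 3 to 18 counts, with -2.18. The part of these markers and of depth in the results was not tested beyond the thinning of all libraries to the shallowest total, under which all 6 calls below were made in the same direction.

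In Ell3 KD oocytes, Ythdf2, Ythdf3, Ythdc2 and Alkbh5 were lower and Mettl14 and Ythdc1 were higher, while Mettl3, Wtap, Ythdf1 and Fto did not pass the test. A gene was called at an adjusted p under 0.05 in edgeR's quasi-likelihood test, adjusted over all 17879 genes tested. All 10 genes passed the low-count filter. The 2 of 10 called higher stand beside 21.1% of all genes tested, and the 4 of 10 called lower beside 21.8%; in either direction, 6 of 10 stand beside 42.9%. For the 9703 genes averaging at least 5 CPM these shares were 27.2% higher and 25.3% lower. The median log2 fold change was 0.032 over the 10 genes and -0.0024 over all genes tested. Without Ell3 KD replicate 2 it was 0.0035 over the 10 genes and -0.0080 over all genes tested. With library totals in place of TMM it was -0.0071 over the 10 genes and -0.042 over all genes tested. Regardless of direction, the median size of the log2 fold change was 0.19 over the 10 genes and 0.25 over all genes tested. Both Ell3 KD libraries lay above both Ctrl libraries for 5 of the 10 genes, beside 35% of all genes tested, and below them for 4, beside 35.7%. Mettl3 and Wtap were among those above under TMM. With library totals in place of TMM, Mettl3 lay below Ctrl in both Ell3 KD libraries and the groups overlapped for Wtap. These levels are shares of a library made from polyadenylated RNA. Less of a message, a shorter poly(A) tail and a change in the rest of the RNA of an oocyte cannot be told apart.

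**Figure D1:**
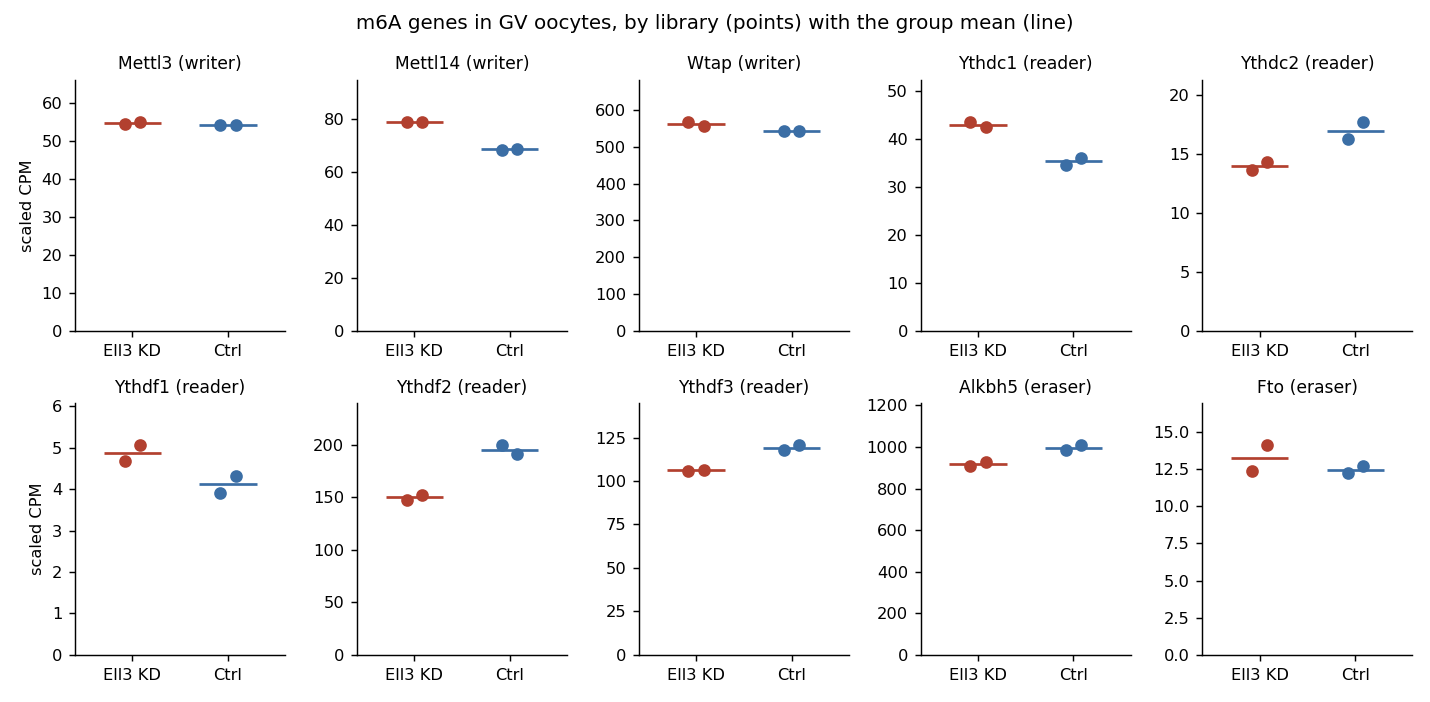
Scaled CPM (y axis, from 0) of the 10 genes in each Ell3 KD and Ctrl library; points are libraries and lines are group means of 2. Ythdf2 sits at 147.4 and 152.2 CPM in Ell3 KD, below both Ctrl libraries at 190.5 and 199.2 CPM, whereas the groups overlap for Fto.

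Of the 3 core writers, only Mettl14 passed the test. Mettl14 (chromosome 3, 123368297 to 123386108 on GRCm38) had 78.7 and 78.8 CPM in the Ell3 KD libraries, against 68.2 and 68.7 CPM in Ctrl. The groups did not overlap, and libraries of a group lay within 1 CPM of each other. Mettl14 rose by 15.1%, with a log2 fold change of 0.20 ± 0.04 (SE) and an edgeR adjusted p of 4.42e-04.

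Mettl3 (chromosome 14, 52294841 to 52305128) encodes the subunit that transfers the methyl group. It had 54.7 and 55.2 CPM in Ell3 KD and 54.3 and 54.3 CPM in Ctrl. The log2 fold change of 0.017 had a 95% interval of -0.081 to 0.11 (edgeR adjusted p = 0.811), so a change of the size seen in Mettl14 lay outside it. Tox4, on the opposite strand, overlaps 18.4% of the exon length of Mettl3, and without the strand setting of the counting their reads cannot be told apart there. Tox4, named for this overlap, was lower, averaging 15.1 ± 0.0701 CPM in Ell3 KD and 18.6 ± 0.504 CPM in Ctrl (SD, n = 2 each), a log2 difference of -0.30 ± 0.08 (edgeR adjusted p = 0.00237).

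Wtap (chromosome 17, 12966796 to 12994169) was the most abundant writer, with 567.8 and 554.9 CPM in Ell3 KD and 543.6 and 542.6 CPM in Ctrl. The log2 fold change of 0.048 ± 0.029 did not reach the threshold (edgeR adjusted p = 0.197). Both Ell3 KD libraries lay above Ctrl under TMM scaling, but with library totals the groups overlapped, at 561.5 and 546.1 CPM in Ell3 KD and 550.7 and 550.5 CPM in Ctrl, and the log2 fold change was 0.0086. With the length and GC trend removed it was 0.020. A processed pseudogene, Gm14292 on chromosome 2, matches 456 bases of Wtap at 99.3% identity and had 3435 and 2817 counts in Ell3 KD and 2039 and 2175 in Ctrl. It took 6.39% and 7.28% of the counts of the pair in Ell3 KD and 7.58% and 7.51% in Ctrl, and reads of these 2 loci cannot be assigned with certainty. Summed with its close copies, Wtap averaged 602.6 CPM in Ell3 KD and 587.4 CPM in Ctrl, a log2 ratio of 0.037.

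The YTHDF readers did not move as one. Ythdf2, whose protein recruits the CCR4-NOT deadenylase to m6A-marked messages, had 147.4 and 152.2 CPM in Ell3 KD, against 199.2 and 190.5 CPM in Ctrl. The groups were far apart compared with the spread within each. Ythdf2 fell by 0.38 ± 0.04 on the log2 scale (SE, edgeR adjusted p = 7.10e-09), to 0.769 of its Ctrl level. Larger changes were seen in 13.5% of the 9703 genes at 5 CPM or more and in 35.3% of all genes tested. Ythdf2 (chromosome 4, 132184912 to 132212303) has a pair of near copies on the X chromosome, Gm6823 and Gm8401, which held at most 7 counts in any library. With them added, the log2 ratio was -0.38.

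Ythdf3 (chromosome 3, 16183212 to 16217037), known to act with YTHDF1 on translation and with YTHDF2 on decay, had 105.7 and 106.5 CPM in Ell3 KD, against 117.8 and 120.5 CPM in Ctrl. On the log2 scale it fell by 0.17 ± 0.04, with an edgeR adjusted p of 9.52e-04. Ythdf1 (chromosome 2, 180904377 to 180920949), a reader linked to translation, was scarce, with 4.67 and 5.06 CPM in Ell3 KD and 3.92 and 4.31 CPM in Ctrl. Its log2 fold change of 0.24 ± 0.15 did not reach the threshold (edgeR adjusted p = 0.194), with a 95% interval of -0.061 to 0.54. The 3 genes together held 257.8 and 263.8 CPM in Ell3 KD and 321.0 and 315.3 CPM in Ctrl, and the lower sum in Ell3 KD came from Ythdf2 and Ythdf3.

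The YTHDC readers changed in opposite directions. Ythdc1 (chromosome 5, 86804221 to 86836659), the nuclear reader, had 43.6 and 42.4 CPM in Ell3 KD, against 34.5 and 36.1 CPM in Ctrl. It rose by 21.8%, with a log2 fold change of 0.28 ± 0.05 and an edgeR adjusted p of 1.50e-04. Ythdc2, whose protein carries an RNA helicase domain beside its YTH domain, had 13.6 and 14.3 CPM in Ell3 KD, against 16.2 and 17.7 CPM in Ctrl. The groups did not overlap, and on the log2 scale Ythdc2 fell by 0.28 ± 0.08, with an edgeR adjusted p of 0.00686. This call was lost when either of 2 libraries was left out: without Ctrl replicate 2 the log2 fold change was -0.22 (edgeR adjusted p = 0.0782), and without Ell3 KD replicate 1 it was -0.24 (edgeR adjusted p = 0.0768).

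The promoters of Ythdf2 and Ythdc1 are shown because these were the called genes with the largest changes in either direction. They run from 250 bases before to 50 after the RefSeq start on GRCm38.p6, with GGGCGG and CCAAT on either strand in capitals. That of Ythdf2 is chr4:132212207-132212506 on the minus strand and that of Ythdc1 is chr5:86804016-86804315 on the plus strand.
Ythdf2: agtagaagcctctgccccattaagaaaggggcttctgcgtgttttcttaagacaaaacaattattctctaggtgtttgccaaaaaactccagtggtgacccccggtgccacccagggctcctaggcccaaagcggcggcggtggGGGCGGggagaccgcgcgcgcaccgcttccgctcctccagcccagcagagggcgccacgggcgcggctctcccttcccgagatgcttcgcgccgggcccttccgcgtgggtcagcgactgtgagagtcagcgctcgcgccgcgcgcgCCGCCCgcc
Ythdc1: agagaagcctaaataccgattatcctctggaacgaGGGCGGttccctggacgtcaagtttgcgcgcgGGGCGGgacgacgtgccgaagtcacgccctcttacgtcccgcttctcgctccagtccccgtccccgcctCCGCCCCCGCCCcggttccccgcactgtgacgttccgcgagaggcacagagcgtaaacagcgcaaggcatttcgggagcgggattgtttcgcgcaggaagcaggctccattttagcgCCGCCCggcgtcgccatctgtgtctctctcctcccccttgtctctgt

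RefSeq promoters were matched for 7 of the 10 genes, with 3 annotated starts for Wtap; Mettl14, Ythdf3 and Ythdc2 had no entry. GGGCGG, the GC box that factors of the Sp family bind, occurred 2 times at Ythdf2 and 5 times at Ythdc1, counting overlapping matches, and CCAAT in neither. GGGCGG was found at 5 of the 7 genes and in 35.7% of all 32851 promoters. CCAAT was found at 3 of the 7 and in 37.4% of all promoters, and TATAAA at none of the 7 and in 13.6%. The promoters of the 7 genes held between 17 and 48 CG dinucleotides, against a median of 7 over all promoters. A gene was counted if any of its starts held the motif, whereas the shares over all promoters count each start. All promoters were used, whether or not their genes had counts in these oocytes.

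Of the erasers, Alkbh5 was the most abundant of the 10 genes and passed the test, and Fto did not. Alkbh5 (chromosome 11, 60536381 to 60558512) had 907.6 and 928.4 CPM in Ell3 KD, against 987.1 and 1008 CPM in Ctrl. On the log2 scale it fell by 0.12 ± 0.03, with an edgeR adjusted p of 0.00112, the smallest change among the 6 called. With the trend of all changes on transcript length and GC content removed, the log2 fold change was -0.046 and the call was lost (edgeR adjusted p = 0.201). Fto (chromosome 8, 91313525 to 91668439) had 12.4 and 14.1 CPM in Ell3 KD and 12.2 and 12.7 CPM in Ctrl. The groups overlapped, and the log2 fold change of 0.082 had a 95% interval of -0.10 to 0.27 (edgeR adjusted p = 0.494).

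**Figure D2:**
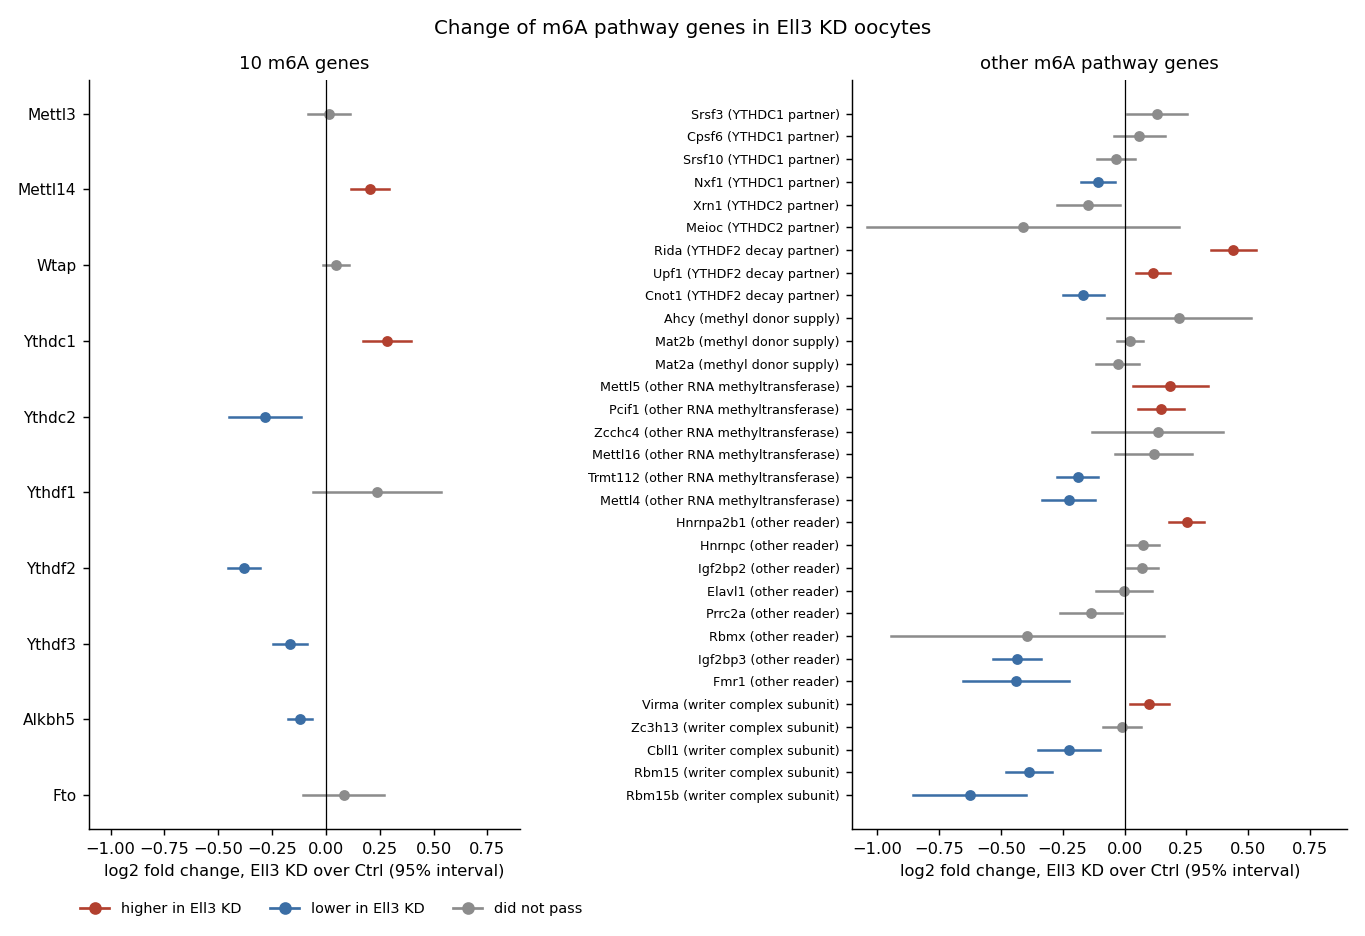
Log2 fold change of Ell3 KD over Ctrl (x axis) with its 95% interval for the 10 genes (left) and 31 other m6A pathway genes tested (right; Rbm46, at 1.74, lies beyond the axis and is left out). Red marks genes called higher in Ell3 KD, blue those called lower and grey those that did not pass; Ythdf2 has the largest fall of the 10 and Rbm15b the largest of the pathway.

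Levels between genes were compared per length, as counts per kilobase of exon scaled to a total of 1e+06 (TPM, computed here from the counts). In both groups the order was Alkbh5, Wtap, Ythdf2, Ythdf3, Mettl3, Mettl14, Ythdc1, Ythdc2, Ythdf1 and Fto. Alkbh5 averaged 423.9 ± 6.54 TPM in Ell3 KD and 487.6 ± 8.02 TPM in Ctrl, and Fto averaged 2.81 ± 0.258 TPM in Ell3 KD and 2.80 ± 0.0784 TPM in Ctrl (SD, n = 2 each). TPM has another scaling total than CPM, so changes between the groups are read from CPM alone. Mettl3 and Mettl14, whose proteins pair as a heterodimer, were at 29.8 and 30.1 TPM for Mettl3 and 29.3 and 29.4 TPM for Mettl14 in Ell3 KD, against 31.3 and 31.3 TPM for Mettl3 and 26.9 and 27.1 TPM for Mettl14 in Ctrl. No neighbours in the order overlapped within a group. With the length of the longest transcript in place of the exon length, Mettl3 moved up to the fourth place and Fto to the eighth in Ctrl, so these places rest on the length used. By that length Mettl3 was at 55.8 and 56.3 TPM and Mettl14 at 24.1 and 24.1 TPM in Ell3 KD, against 58.5 and 58.5 TPM for Mettl3 and 22.0 and 22.2 TPM for Mettl14 in Ctrl.

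Ratios within a library do not depend on library scaling, but their level depends on the gene lengths used, whereas the log2 difference between the groups does not; the length of the longest transcript was added for the ratios after seeing the data. The ratio of Mettl3 to Mettl14 per length was 1.02 and 1.02 in Ell3 KD, against 1.17 and 1.16 in Ctrl; by the longest transcript it was 2.32 and 2.33 in Ell3 KD and 2.66 and 2.64 in Ctrl. The ratio of Ythdf2 to Ythdf3 was 1.64 and 1.68 in Ell3 KD, against 1.98 and 1.86 in Ctrl, and that of Ythdf2 to Ythdf1 was 22.9 and 21.8 in Ell3 KD, against 36.9 and 32.0 in Ctrl. Ythdf2 thus made up 60.4% and 60.9% of the YTHDF messages in Ell3 KD and 65.3% and 63.7% in Ctrl. The ratio of Ythdc1 to Ythdc2 was 2.08 and 1.92 in Ell3 KD, against 1.38 and 1.32 in Ctrl; by the longest transcript it was 3.65 and 3.38 in Ell3 KD and 2.43 and 2.33 in Ctrl. The ratio of Alkbh5 to Fto was 159.7 and 143.3 in Ell3 KD, against 175.7 and 172.9 in Ctrl; by the longest transcript it was 60.3 and 54.1 in Ell3 KD and 66.3 and 65.2 in Ctrl. The groups did not overlap in any of these 5 ratios or in Mettl3 to Wtap, which was 0.119 and 0.122 in Ell3 KD and 0.123 and 0.123 in Ctrl. Among single genes tested, both Ell3 KD libraries lay above both Ctrl libraries for 35% and below them for 35.7%. The share over other pairs of genes was not computed. Mettl3 and Ythdf2 recur among the ratios, so these are not independent. The exact two-sided permutation test gave p = 0.333 for each of the 6 ratios, the smallest that 2 against 2 libraries allow. These p-values were not adjusted over the 6.

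**Figure D3:**
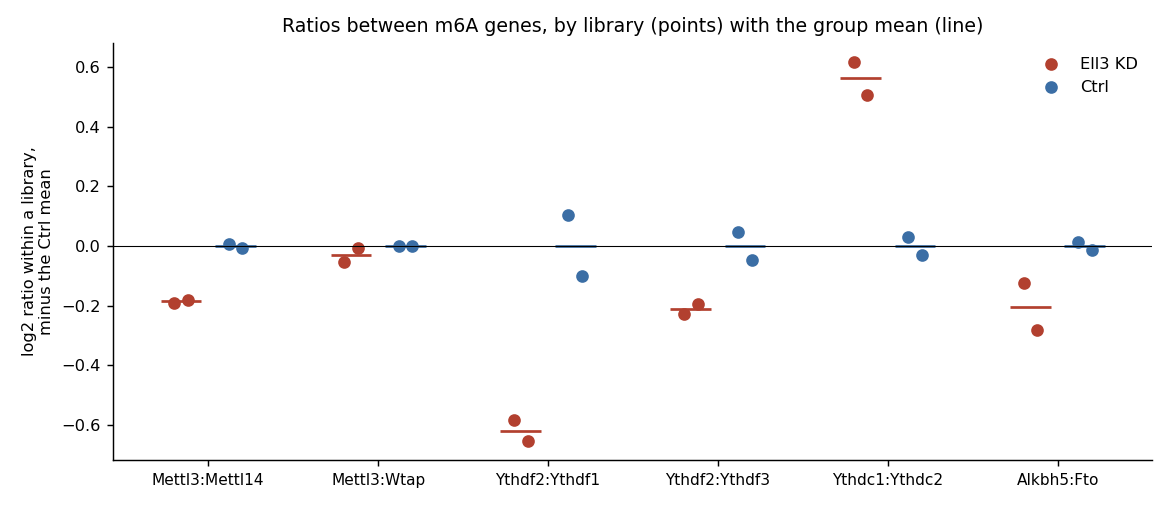
Log2 ratio of 2 genes within each library (y axis, minus the Ctrl mean) for 6 pairs; points are libraries and lines group means of 2. The largest shifts of Ell3 KD from Ctrl are -0.62 for Ythdf2 to Ythdf1 and 0.56 for Ythdc1 to Ythdc2.

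Outside the core, Rbm15b, Rbm15 and Cbll1 of the writer complex were lower in Ell3 KD. Of 5 further subunit genes, 1 rose, 3 fell and 1 did not pass, beside 21.1% higher and 21.8% lower of all genes tested. Rbm15b and its paralog Rbm15 encode RNA-binding subunits that guide the complex. Rbm15b had 6.25 and 6.82 CPM in Ell3 KD, against 10.1 and 10.1 CPM in Ctrl, and on the log2 scale fell by 0.63 ± 0.11 (edgeR adjusted p = 5.51e-05). Rbm15 had 60.5 and 59.0 CPM in Ell3 KD, against 76.4 and 79.9 CPM in Ctrl, and fell by 0.39 ± 0.05 (edgeR adjusted p = 1.57e-07). The other subunits are named to complete the complex. The ubiquitin ligase gene Cbll1 fell by 0.23, the scaffold gene Virma rose by 0.099 (edgeR adjusted p = 0.00398 and adjusted p = 0.0383), and Zc3h13, which keeps the complex in the nucleus, was at 137.1 ± 3.29 CPM in Ell3 KD and 138.0 ± 0.572 CPM in Ctrl (edgeR adjusted p = 0.854).

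Over 33 other pathway genes, 32 were tested, 7 rose, 9 fell and 16 did not pass, beside the same 21.1% and 21.8% of all genes. With library totals in place of TMM 3 rose and 11 fell, beside 3142 higher and 4557 lower of all 17879 genes tested. The number that rose also varied when 1 library was left out, as given below. The genes for 3 partners of YTHDF2 in decay went both ways. Rida, which bridges YTHDF2 to an endoribonuclease, had 80.5 and 80.5 CPM in Ell3 KD, against 59.4 and 59.5 CPM in Ctrl, and on the log2 scale rose by 0.44 ± 0.04 (edgeR adjusted p = 1.39e-08). Upf1, a helicase gene of mRNA decay, rose by 0.11 ± 0.03 (edgeR adjusted p = 0.00709). Cnot1, the scaffold gene of CCR4-NOT, named to complete the partners, fell by 0.17 ± 0.04 (edgeR adjusted p = 0.00150). Of the YTHDC2 partners, also named to complete their group, Rbm46 was higher with 46 and 21 counts in Ell3 KD, against 7 and 5 in Ctrl (edgeR adjusted p = 0.0226). Meioc, at 0.871 CPM in Ell3 KD and 1.16 CPM in Ctrl, and Xrn1, at 34.7 CPM in Ell3 KD and 38.3 CPM in Ctrl, did not pass (edgeR adjusted p = 0.298 and adjusted p = 0.0566).

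Of the 8 other readers tested, 1 rose and 2 fell, close to the 21.1% higher and 21.8% lower of all genes tested. Hnrnpa2b1, a nuclear RNA-binding protein gene, had 252.0 and 254.6 CPM in Ell3 KD, against 208.4 and 217.4 CPM in Ctrl, and on the log2 scale rose by 0.25 ± 0.03 (edgeR adjusted p = 1.69e-06). Igf2bp3, whose protein stabilises m6A-marked messages, had 57.2 and 63.1 CPM in Ell3 KD, against 81.8 and 80.5 CPM in Ctrl, and fell by 0.43 ± 0.05 (edgeR adjusted p = 6.19e-08). Malsu1, on the opposite strand, overlaps 18.7% of the exon length of Igf2bp3 and did not pass (edgeR adjusted p = 0.382). Igf2bp2, a paralog of Igf2bp3, was at 492.9 ± 8.38 CPM in Ell3 KD and 469.1 ± 4.36 CPM in Ctrl (edgeR adjusted p = 0.0578). Igf2bp1 had at most 3 counts in any library. Hnrnpc, a nuclear ribonucleoprotein gene with a close pseudogene copy in Gm12696, was at 609.2 ± 27.5 CPM in Ell3 KD and 579.1 ± 6.54 CPM in Ctrl (edgeR adjusted p = 0.0653). Mat2b, a subunit gene of the enzyme that makes the methyl donor, was at 1748 ± 37.5 CPM in Ell3 KD and 1722 ± 8.79 CPM in Ctrl (edgeR adjusted p = 0.537).

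The genes of the 10 that fell had annotated 3′ UTRs of 1936 bases (Ythdc2), 2012 bases (Ythdf2), 2877 bases (Ythdf3) and 4097 bases (Alkbh5). Those that rose had 3′ UTRs of 749 bases (Ythdc1) and 1089 bases (Mettl14), and those that did not pass had 141 bases (Mettl3), 272 bases (Ythdf1), 672 bases (Wtap) and 2004 bases (Fto). These lengths belong to the transcript with the longest coding sequence, and the property was chosen after the values were seen. With the longest annotated 3′ UTR instead, Mettl14 had 6439 bases, Fto 3243 and Wtap 2607, so that these 3 genes, none of which fell, exceeded Ythdf2 and Ythdc2. Which isoforms these oocytes used was not measured. Over 8876 genes at 5 CPM or more, 37.2% were called higher and 18.1% lower in the quartile with the shortest 3′ UTRs (up to 334 bases), against 25.7% higher and 26.8% lower in the second quartile, 22.7% higher and 31.0% lower in the third, and 22.1% higher and 28.2% lower in the quartile with the longest (from 1936 bases). The shortest quartile stood apart from the other 3, and the share called lower was largest in the third. The correlation of length with log2 fold change across these genes was weak, with a Spearman rho of -0.13 and a Pearson r of -0.050; genes of a library are not independent.

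**Figure D4:**
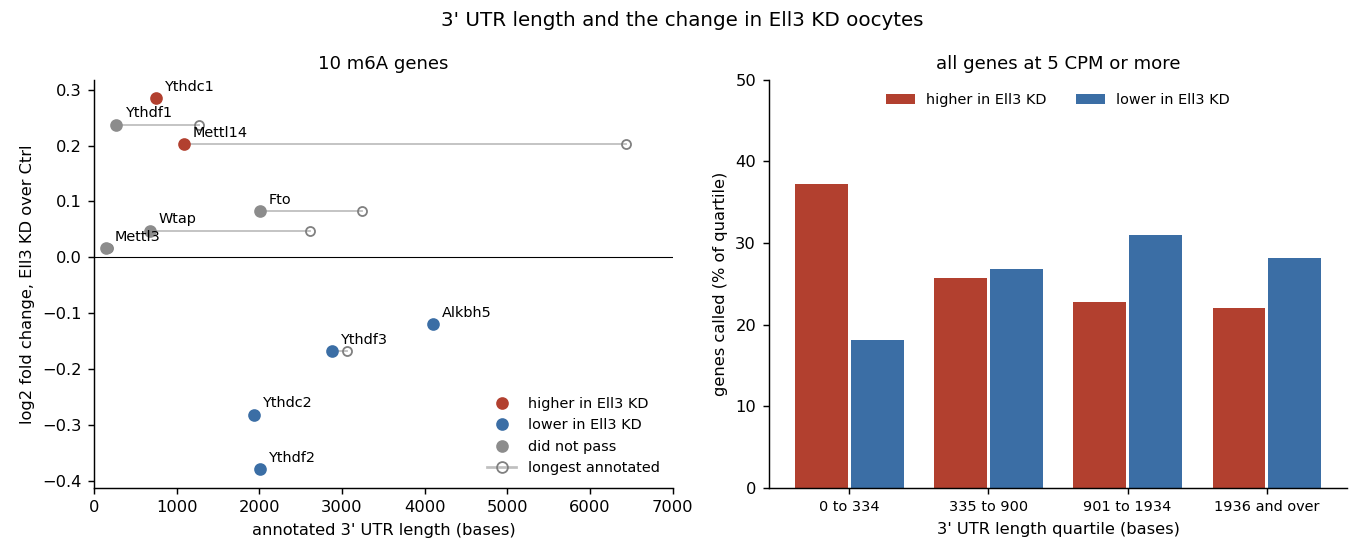
Left, log2 fold change of Ell3 KD over Ctrl (y axis) against annotated 3′ UTR length in bases (x axis) for the 10 genes, filled points for the transcript with the longest coding sequence and open points for the longest annotated 3′ UTR. Right, percent of genes at 5 CPM or more called higher or lower in Ell3 KD by quartile of 3′ UTR length, with 37.2% higher in the shortest quartile and between 22.1% and 25.7% in the other 3.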

How the data were processed

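The data were gene counts of 4 Smart-seq2 libraries from polyadenylated RNA of mouse GV oocytes, 2 Ell3 KD and 2 Ctrl, amplified for 16 cycles, per the labels' protocols. Sample titles gave the groups and replicate numbers. The deposited values are raw counts for each gene symbol. The authors used FastQC 0.11.5, HISAT2 2.2.1.0 and featureCounts with build mm10, per the submitters' processing notes. Annotation, strand setting and the treatment of reads with several matches are not given in the sources used here.

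Here, edgeR 4.0.16 in R 4.3.3 was run on all 4 libraries (filterByExpr, TMM, estimateDisp, glmQLFit, glmQLFTest, two-sided, no covariate), with Benjamini-Hochberg adjustment over 17879 genes and calls under 0.05. SE is the log2 fold change over the square root of F. Alternatives used DESeq2 1.42.0 and limma 3.58.1. The scripts were tested on simulated counts. A count of 0 allows up to 0.0335 CPM in the deepest and 0.0665 CPM in the shallowest library (3 counts, counting error only, since amplified reads are not independent molecules). Replicates of a group differed beyond counting error, with a chi-square of 4.17 per degree of freedom in Ell3 KD and 4.08 in Ctrl; whether that spread is biological or technical is not known, and p-values measure it alone. Gene models came from GENCODE M21 (GRCm38), which gave a length for 49621 symbols. Close copies were sought with blastn 2.17.0 (at least 95% identity over 150 bases). Named were the 10 genes, Ell3 and, of the other pathway genes, the 3 called with the smallest p in each direction and the 3 most abundant, with exceptions stated. The members and lists were chosen with earlier results of these data known.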

Additional observations from a re-analysis of the deposited data

How the results depend on the processing

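Across 14 alternatives, the 6 calls among the 10 genes kept their direction, and all 6 were made under DESeq2 size factors, library totals, either low-count filter, DESeq2, limma-voom, thinning and the replicate block. Leaving out 1 library gave 2 higher and 3 to 4 lower. With an assumed coefficient of variation of 0.2 edgeR called 0 of the 10 higher and 0 lower, beside 861 higher and 1103 lower of all 17879 genes tested. Under that setting 0 of the 10 had an unadjusted p under 0.05, against 6 as reported and 6 with DESeq2. Of the other pathway genes 1 was higher and 0 lower, against 7 and 9 (2 in all at an unadjusted p under 0.05). Such a spread leaves SEs near 0.29, above most of these changes. Of the other pathway genes 3 were higher with library totals, and 4 to 8 higher and 7 to 10 lower when 1 library was left out. The log2 fold changes that turned sign were not called. Mettl3 was at -0.023 with library totals (both Ell3 KD libraries below Ctrl), which moved all genes tested by a median of -0.039. Fto was at -0.0072 without Ell3 KD replicate 2 and at up to 0.18 when another library was left out. The cause of these turns was not tested. Removal of the length and GC trend, chosen after seeing the data, cost the call of Alkbh5 and no other of the 6. When 1 library was left out, the log2 difference ranged from -0.72 to -0.52 for Ythdf2 to Ythdf1, from 0.51 to 0.62 for Ythdc1 to Ythdc2, from -0.28 to -0.13 for Alkbh5 to Fto (-0.13 without Ell3 KD replicate 2, against -0.20 as reported), and from -0.054 to -0.0076 for Mettl3 to Wtap. The labels tie libraries of equal replicate number to nothing shared (correlation of their deviations 0.029). With the replicate block 2 of the 10 were higher and 4 lower, and 10 other pathway genes higher and 10 lower. These stand beside 3894 higher and 3987 lower of all 17879 genes tested. Depth limits Ythdf1 most, at 179 to 414 counts per library.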

Other observations

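Genes for other RNA methyltransferases, listed beside the m6A complex, were called higher in Ell3 KD oocytes for 2 of 6, lower for 2 and neither for 2, beside 21.1% higher and 21.8% lower of all genes tested. These genes were named to complete the group. Mettl5, whose enzyme methylates 18S ribosomal RNA, had 20.1 and 21.1 CPM in Ell3 KD, against 17.4 and 18.8 CPM in Ctrl (log2 fold change 0.19 ± 0.07, edgeR adjusted p = 0.0450). Ssb, on the opposite strand, overlaps 6.94% of the exon length of Mettl5, averaged 1022 CPM in Ell3 KD and 831.4 CPM in Ctrl and was also higher (edgeR adjusted p = 5.36e-08), so the counts of Mettl5 are uncertain. Trmt112, whose protein stabilises METTL5, had 91.2 and 90.5 CPM in Ell3 KD, against 105.0 and 102.2 CPM in Ctrl (log2 fold change -0.19 ± 0.04, edgeR adjusted p = 4.39e-04). Prdx5, on the opposite strand, overlaps 33.2% of the exon length of Trmt112 and was higher (edgeR adjusted p = 0.00812). Trmt112 also has a pseudogene copy, Trmt112-ps2, which averaged 21.18 CPM in Ell3 KD and 21.16 CPM in Ctrl. The counts of Trmt112 are therefore uncertain. Pcif1, the methyltransferase gene for the adenosine next to the cap, had 74.6 and 72.1 CPM in Ell3 KD, against 65.5 and 67.0 CPM in Ctrl (log2 fold change 0.15 ± 0.04, edgeR adjusted p = 0.00938); 16.9% of its exon length overlaps Zfp335 on the opposite strand, which was also higher (edgeR adjusted p = 0.00803). Mettl4 had 38.4 and 39.0 CPM in Ell3 KD, against 44.7 and 45.9 CPM in Ctrl (log2 fold change -0.23 ± 0.05, edgeR adjusted p = 0.00107). Mettl16 did not pass (log2 fold change 0.12 ± 0.08, edgeR adjusted p = 0.226), and neither did Zcchc4 (log2 fold change 0.13 ± 0.13, edgeR adjusted p = 0.428).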
